A study of Homo sapiens with 65 samples.

Results

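Pluripotency genes were followed through the differentiation of human cardioids, from the first days after the stem cell state to day 7.5. The set was a fixed list of 10 genes of the 58735 in the count table, chosen by name: POU5F1, NANOG, SOX2, ZFP42, DPPA4, L1TD1, LIN28A, DNMT3B, PRDM14 and TERT. The rule itself uses no measured value, but the set was proposed with earlier results of these data known. Cardioids are self-organising aggregates of heart cells grown from pluripotent stem cells, here of left-ventricular kind, grown from WTC-11, a line of induced pluripotent cells. Gene expression was read by 3′ mRNA sequencing (QuantSeq FWD) in 65 libraries, each made from RNA of 8 pooled cardioids. The study asked what hyaluronan, a sugar polymer of the extracellular matrix, contributes to these aggregates.

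The libraries formed 16 groups in 2 arms. The genotype arm (41 libraries) held wild-type lines (WT: the lines named WT, WT_TU, cl43_WT_UT and TNT2) and libraries labelled HAS2-KO (KO: clones cl4, cl14, cl46 and cl51), in which the labels name a hyaluronan synthase gene as knocked out. Day 1.5 had 5 WT and 6 KO libraries, days 2.5 and 4.5 had 6 of each, and day 7.5 had 3 of each. The enzyme arm (24 libraries, 3 in each of 8 groups) held untreated cardioids at days 2.5, 4.5 and 7.5, cardioids given hyaluronidase from day 1.5 (HAse1.5) at the same days, and cardioids given it from day 2.5 (HAse2.5) at days 4.5 and 7.5. Hyaluronidase digests hyaluronan. The 3 enzyme replicates are the lines TNNI1, WT and TNNT2, so a replicate number is a line. All groups derive from the WTC-11 line and all received the same differentiation protocol, and each KO clone is a line of its own. Several WT and KO libraries are repeats of 1 line, so p-values measure in part the spread between repeats.

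Pluripotency rests on a small circuit of transcription factors. POU5F1 (OCT4), SOX2 and NANOG bind the regulatory DNA of many stem cell genes, their own included. Around this core sit RNA-binding proteins such as LIN28A, which blocks maturation of the let-7 microRNAs, and chromatin enzymes such as DNMT3B, which writes new DNA methylation. When stem cells are driven to mesoderm the circuit is dismantled, and in some protocols NANOG and POU5F1 persist into the primitive streak stage while SOX2 is lost first.

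The promoters of 7 of the 10 members were found in the RefSeq table (GRCh38.p14), and those of the core factors NANOG and SOX2 are shown because both hold the octamer-like word that POU5F1 is known to bind. Each run is the 250 bases before the RefSeq start, 5′ to 3′ on the gene's strand, with the matching words in capitals. NANOG lies at chr12:7789152-7789401 (plus strand) and SOX2 at chr3:181711675-181711924 (plus strand).
NANOG: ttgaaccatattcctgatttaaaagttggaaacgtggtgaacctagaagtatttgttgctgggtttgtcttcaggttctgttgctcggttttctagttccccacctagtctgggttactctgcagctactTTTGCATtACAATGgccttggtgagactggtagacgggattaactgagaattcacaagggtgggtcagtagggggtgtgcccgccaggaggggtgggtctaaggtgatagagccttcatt
SOX2: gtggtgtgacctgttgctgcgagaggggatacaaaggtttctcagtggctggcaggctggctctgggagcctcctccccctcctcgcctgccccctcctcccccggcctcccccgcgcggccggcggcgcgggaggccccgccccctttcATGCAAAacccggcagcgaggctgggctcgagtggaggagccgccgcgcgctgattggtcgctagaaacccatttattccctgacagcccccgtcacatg
In NANOG the octamer word TTTGCAT stood at bases -120 to -114, followed after 1 base by the word ACAATG of the SOX family at -112 to -107. In SOX2 the octamer word was found on the reverse strand at -100 to -94. A further SOX word, CTTTGT on the reverse strand, stood at -220 to -215 and is left in lower case. Both strands were searched for these and for the TATA box word TATAAA, and no matches overlapped in these promoters. Of 35116 promoters of the same length, 3.94% held the octamer word, 9.29% the first SOX word, 13.7% the further SOX word and 10.7% the TATA box word. No match to the 4 words was found in the promoters of ZFP42, DPPA4, L1TD1, DNMT3B and TERT. A match is a description of the letters. CpG dinucleotides numbered 4 in the NANOG promoter, 20 in SOX2, 23 in ZFP42, 3 in DPPA4, 12 in L1TD1, 3 in DNMT3B and 28 in TERT, against a median of 11 over all promoters. The DNMT3B run (chr20:32779602-32779851) lies inside the counted gene, which starts at 32762385. It belongs to an inner start, so its words and CpG count do not describe the 5′ end of DNMT3B. The NANOG run also lies inside its counted gene, which starts at 7787794.

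On GRCh38 the members lie at chr6:31164337-31180731 (POU5F1), chr12:7787794-7799141 (NANOG), chr3:181711924-181714436 (SOX2), chr4:187995771-188005050 (ZFP42), chr3:109326141-109337572 (DPPA4), chr1:62194831-62212328 (L1TD1), chr1:26410778-26429722 (LIN28A), chr20:32762385-32809356 (DNMT3B), chr8:70051651-70071693 (PRDM14) and chr5:1253147-1295069 (TERT). Reads were counted over whole genes. SOX2 lies inside SOX2-OT on the same strand, POU5F1 overlaps PSORS1C3 on the same strand and TCF19 on the other, and L1TD1 overlaps AL162739.1 on the other strand, so reads of these pairs may not be told apart. The near-identical copy POU5F1B held 1166 counts over all libraries against 9273 for POU5F1, and adding its counts to those of POU5F1 changed no call.

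A library held 831062 to 3574843 counts in all, with a median of 1570954. Levels are given as CPM, a gene's counts scaled to the total of its library. HAS2 itself, the gene named in the KO labels, did not separate the genotypes. WT libraries averaged 197 ± 91.6 CPM (SD, n = 5) on the first day and KO libraries 165 ± 71.0 CPM (SD, n = 6). On day 4.5 the means were 339 ± 133 for WT against 351 ± 74.5 CPM for KO (SD, n = 6 each), and the ranges overlapped at every day. A 3′ read can lie outside the edited part of the gene, so this does not check the labels. The label "cardiac progenitor" of the early libraries was compared with markers: at day 1.5 TBX5 and TBX20 had 0 counts in WT and KO and MEF2C 0.573 ± 0.587 CPM in WT (SD, n = 5), while HAND1 had 152 ± 91.7, GATA4 87.2 ± 44.2, NKX2-5 41.6 ± 37.2 and ISL1 4.78 ± 0.91 CPM. The primitive streak gene MIXL1 had 1561 ± 241 CPM in WT and the endoderm marker CER1 2143 ± 1742 CPM (250 to 3671 CPM). The day 1.5 libraries are called by their day here, since streak, endoderm and some progenitor markers were all present. By day 4.5 the 7 cardiac progenitor markers summed to 1705 to 4164 CPM in WT, against 155 to 540 CPM at day 1.5. The troponin gene TNNT2 reached 5021 ± 1115 CPM in WT by day 4.5 (SD, n = 6). Of the 7 neural markers PAX6 and SOX1 were at or near 0 in every group. ZIC1 varied between libraries of both genotypes. At day 1.5 it had 0 to 36.4 CPM in WT (median 18.8) and 0 to 39.7 CPM in KO (median 0). WT libraries still had 0 to 14.0 CPM of ZIC1 at day 7.5. At day 2.5 OTX1 averaged 9.37 ± 5.49 CPM in KO against 1.09 ± 1.76 CPM in WT (SD, n = 6 each).

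One set of libraries stood apart at day 1.5. Library numbers ran in 3 blocks, A, B and C, and what the blocks stand for is not stated. The 3 block A libraries (WT_R1, WT_TU_R1 and cl4_R1) had 346 to 467 CPM of POU5F1 where the 8 others had 188 to 284 CPM, and 784 to 903 CPM of LIN28A where the others had 358 to 561 CPM. They were lower in L1TD1 (311 to 544 CPM against 1176 to 1609 CPM), in DPPA4 (55.4 to 84.5 CPM against 158 to 190 CPM) and in PRDM14 (0 to 0.602 CPM against 3.16 to 14.9 CPM). Of 8 streak and early mesoderm markers, TBX6 (74.5 to 146 CPM against 19.4 to 44.9 CPM) and EOMES (1756 to 2536 CPM against 1075 to 1459 CPM) were higher in them. The other markers, MIXL1, TBXT, MESP1, MESP2, GSC and FGF8, overlapped. Block A medians were lower for MIXL1, TBXT and FGF8 and higher for MESP1, MESP2 and GSC. The block cut across genotype, with 2 WT libraries and 1 KO library, and results that change without it are given both ways.

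Summed over the 10 members, WT libraries held 2207 to 2872 CPM at day 1.5, 1141 to 1424 CPM at day 2.5, 355 to 477 CPM at day 4.5 and 75.4 to 86.5 CPM at day 7.5. KO libraries held 2183 to 2890, 1016 to 1273, 302 to 537 and 92.4 to 105 CPM at the same days. The sums were lower at each later day, without overlap between successive days in either genotype, and the genotypes' sums did not overlap at day 7.5 but did at the days before. At day 7.5 the WT libraries are from blocks A, B and B and the KO libraries from blocks B, C and C, with 2 KO clones (cl4 in 2 of the 3), so genotype and block can hardly be told apart there. These sums are of whole-cardioid RNA, in which fewer expressing cells and less RNA per cell cannot be told apart. Late sums were mostly LIN28A and DNMT3B: at day 7.5 in WT, LIN28A held 42.5 ± 3.99 CPM and DNMT3B 30.7 ± 6.49 CPM (SD, n = 3).

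**Figure D1:**
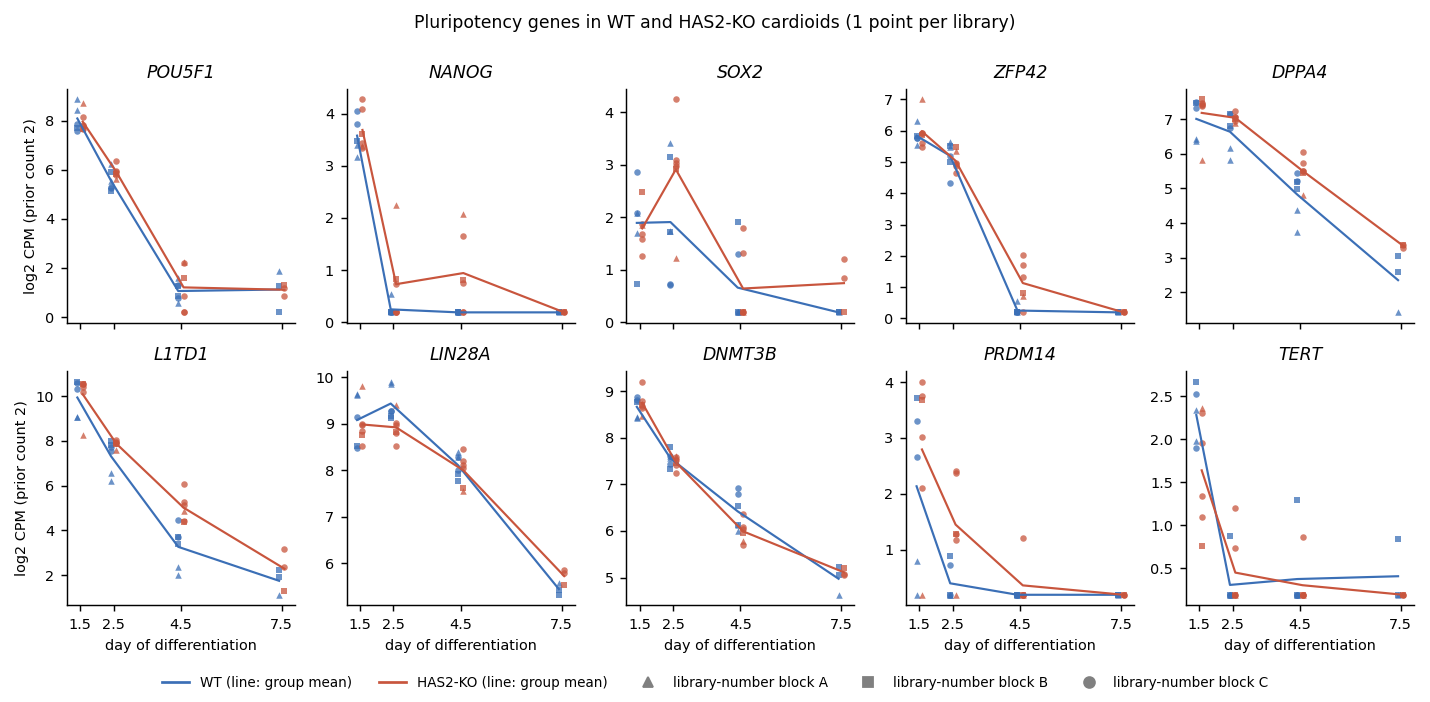
Expression of the 10 genes by day in the genotype arm, 1 panel per gene. The x axis is the day, the y axis log2 CPM (prior count 2), each point is 1 library with its shape giving the library-number block, and lines join group means for WT and KO; each panel has its own scale. The WT points of NANOG and ZFP42 sit at or next to 0 reads at day 4.5, while LIN28A holds its level to day 2.5.

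The core factor POU5F1 fell steeply in WT during the first day measured and was near the floor by day 4.5. WT libraries had 467, 346, 204, 234 and 188 CPM at day 1.5, then a lowest, median and highest of 34.2, 41.6 and 73.7 CPM at day 2.5, and 0.360, 0.952 and 1.87 CPM at day 4.5. At day 7.5 the 3 values were 2.57, 0 and 1.29 CPM. No library of a later day reached those of the day before until day 4.5, after which the groups overlapped. The log2 fold change was -2.82 ± 0.32 (SE) from day 1.5 to 2.5 (edgeR quasi-likelihood test, adjusted p = 4.04e-09) and -5.39 ± 0.44 from day 2.5 to 4.5 (adjusted p = 8.06e-13), while from day 4.5 to 7.5 it was 0.42 (adjusted p = 0.883). In terms of the first-day mean, 16.6% was left at day 2.5 and 0.349% at day 4.5.

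KO libraries followed the same course of POU5F1. They had a lowest, median and highest of 199, 219 and 415 CPM at day 1.5, 48.1, 57.7 and 79.8 CPM at day 2.5, and 0, 1.25 and 3.56 CPM at day 4.5. WT and KO overlapped at every day. The steps in KO were -2.33 ± 0.31 (adjusted p = 1.06e-07) and -5.10 ± 0.42 (adjusted p = 1.34e-12) on the log2 scale by edgeR, and 23.3% and 0.619% of the first-day mean was left.

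NANOG, the factor that stabilises the core circuit, was almost gone by day 2.5. WT libraries had 7.83, 9.33, 9.92, 12.8 and 15.5 CPM at day 1.5, and at day 2.5 there was 1 count in all 6 libraries together. None of the 6 WT libraries at day 4.5 and none of the 3 at day 7.5 held a NANOG read, which allows up to 3 counts over each group. From 133 counts to 1, the WT ratio between days 1.5 and 2.5 was 134-fold with a counting interval of 23.6 to 5333 (95%, for counting error only), and edgeR gave -6.47 ± 0.80 on the log2 scale (adjusted p = 1.53e-07). In KO the first day ranged from 8.98 to 18.2 CPM (median 10.4) and day 2.5 from 0 to 3.61 CPM (median 0.261), a log2 change of -4.47 ± 0.67 (adjusted p = 4.28e-06). By day 7.5 NANOG was at least 17.2-fold lower than at day 1.5 in WT and at least 19.0-fold lower in KO, taking 3 counts over the group as the floor. NANOG passed the filter on low counts through its day 1.5 libraries alone. Its fall from that day was therefore fixed in advance, and the p-values of these steps are no support for it.

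SOX2, the partner of POU5F1, was already low when sampling began. WT had 3.08, 2.11, 0.522, 6.15 and 3.10 CPM at day 1.5, and a lowest, median and highest of 0.492, 2.17 and 9.56 CPM at day 2.5. KO had 1.27, 2.26 and 4.43 CPM at day 1.5 and 1.203, 6.84 and 17.8 CPM at day 2.5. Days 1.5 and 2.5 overlapped in both genotypes, and the log2 changes were 0.15 ± 0.72 in WT (adjusted p = 0.904) and 1.47 ± 0.70 in KO (adjusted p = 0.105, edgeR). Without block A the KO change was 1.70 with an adjusted p of 0.0346. From day 2.5 to 4.5 SOX2 fell by 2.65 ± 0.86 on the log2 scale in WT (adjusted p = 0.0146) and by 3.59 ± 0.85 in KO (adjusted p = 0.00102). The WT fall rested on few libraries: without WT_TU_R1 of day 2.5 it was -2.03 (adjusted p = 0.0824) and without block A -1.33 (adjusted p = 0.298). At day 7.5 SOX2 had 0 counts in the 3 WT libraries and 3 counts over the 3 KO libraries. SOX2 passed the filter on low counts mainly through its day 2.5 libraries. A rise to that day and a fall from it were thus favoured in advance, and the p-values of these steps are no support for them.

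PRDM14, a transcriptional repressor that protects the stem cell state, had few counts and showed the split by block. WT libraries had 0, 0.602, 12.01, 8.71 and 5.17 CPM at day 1.5, the first 2 of them in block A, and KO a lowest, median and highest of 0, 9.30 and 14.9 CPM. At day 2.5 there were 2 counts in the 6 WT libraries and 21 counts in the 6 KO libraries, where 5 of the 6 held 1.11 to 4.18 CPM. From day 1.5 to 2.5 PRDM14 fell in WT by 4.63 ± 1.13 on the log2 scale (adjusted p = 0.0021, edgeR), while the KO change was -2.09 ± 0.83 (adjusted p = 0.0503). With the library-number block in the fit the KO change was -2.11 with an adjusted p of 0.00248, and -2.22 with 0.0019 with line and repeat as the block. From day 2.5 to 4.5 the KO change was -3.04 ± 1.22 (adjusted p = 0.0583), and -2.94 with an adjusted p of 0.00686 with the library-number block. Leaving out a single KO library also moved these calls, for example to an adjusted p of 0.015 for the first step without cl4_R1 of day 1.5, and of 0.0277 for the later one without cl51_R1 of day 4.5. PRDM14 had 0 counts in every WT library from day 4.5 on. Like NANOG, it passed the filter on low counts through day 1.5 alone, so a fall from that day was fixed in advance.

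ZFP42 (REX1), a zinc finger protein used as a marker of undifferentiated cells, fell in part by day 2.5 and then neared the floor. At day 2.5 WT kept 65.1% of its first-day mean and KO 49.0%. WT had 45.6, 77.4, 55.4, 52.8 and 53.2 CPM at day 1.5, a lowest, median and highest of 18.9, 39.6 and 48.8 CPM at day 2.5, and 1 count in all 6 libraries at day 4.5. KO had 43.3, 58.8 and 127 CPM at day 1.5, 23.9, 29.6 and 43.3 CPM at day 2.5, and 0, 0.977 and 2.90 CPM at day 4.5. No ZFP42 read was counted at day 7.5 in either genotype. The first step was -0.83 ± 0.28 in WT (adjusted p = 0.0236, edgeR) and -1.29 ± 0.28 in KO (adjusted p = 0.000394), and the second -7.95 ± 0.53 in WT (adjusted p = 2.02e-14) and -4.57 ± 0.39 in KO (adjusted p = 1.31e-11). The first WT step missed the threshold without WT_TU_R1 of day 1.5 (-0.65, adjusted p = 0.0995) or without cl43_WT_UT of day 2.5 (-0.69, adjusted p = 0.0673). Over the whole course ZFP42 was at least 94.7-fold lower in WT and at least 117-fold lower in KO.

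DPPA4, a DNA-binding protein of early embryos and stem cells, declined slowly and evenly. WT had 84.5, 81.3, 175, 158 and 178 CPM at day 1.5, then 55.4, 108 and 142 CPM (lowest, median, highest) at day 2.5, and 12.2, 32.8 and 42.2 CPM at day 4.5. At day 7.5 the 3 libraries had 1.54, 4.89 and 7.11 CPM. Days 1.5 and 2.5 overlapped and the later days did not. The first step missed the threshold in both genotypes, at -0.57 ± 0.27 in WT (adjusted p = 0.109, edgeR) and -0.45 ± 0.26 in KO (adjusted p = 0.19). It passed with the library-number block in the fit (-0.63, adjusted p = 0.000512 in WT, and -0.38, adjusted p = 0.0258 in KO), with line and repeat as the block (-0.68, adjusted p = 0.000452, and -0.39, adjusted p = 0.0279) and without block A (-0.59, adjusted p = 0.000833, and -0.56, adjusted p = 0.000115). In KO it also passed without cl4_R1 of day 1.5 alone (-0.61, adjusted p = 0.0462). The later WT steps were -1.80 ± 0.27 (adjusted p = 1.18e-06) and -2.67 ± 0.44 (adjusted p = 0.000152), and those in KO -1.51 ± 0.27 (adjusted p = 2.19e-05) and -2.27 ± 0.40 (adjusted p = 0.000127).

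The RNA-binding proteins behaved unlike each other. L1TD1, an RNA-binding protein derived from a LINE-1 element and abundant in human stem cells, had the highest group mean of the set at day 1.5 (in the block A libraries LIN28A was higher), with 538, 544, 1609, 1270 and 1537 CPM in WT and a lowest, median and highest of 311, 1426 and 1501 CPM in KO. At day 2.5 WT had 73.7, 201 and 253 CPM and KO 195, 238 and 263 CPM. The fall of the first step was -2.84 ± 0.38 in WT (adjusted p = 1.66e-07, edgeR) and -2.58 ± 0.37 in KO (adjusted p = 5.72e-07), with no overlap between days. From day 2.5 to 4.5 L1TD1 fell by 4.12 ± 0.42 in WT (adjusted p = 2.24e-10) and by 2.79 ± 0.38 in KO (adjusted p = 2e-07). From day 4.5 to 7.5 the WT change was -2.02 ± 0.69 (adjusted p = 0.117), which passed with the library-number block (-1.94, adjusted p = 0.0208), with line and repeat as the block (-1.996, adjusted p = 0.0279) and without block A (-2.10, adjusted p = 0.0338). In KO it fell by 2.86 ± 0.60 (adjusted p = 0.00131). WT ended at 1.03, 3.49 and 2.59 CPM and KO at 1.30, 4.03 and 7.97 CPM.

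LIN28A was still at its first level a day later and remained detectable to the end. WT had 784, 795, 367, 561 and 358 CPM at day 1.5, and 558, 615 and 957 CPM (lowest, median, highest) at day 2.5. KO had 364, 478 and 903 CPM and then 369, 476 and 673 CPM. The first step was 0.08 ± 0.23 in WT (95% interval -0.38 to 0.54, adjusted p = 0.835, edgeR) and -0.35 ± 0.22 in KO (adjusted p = 0.236), and the days overlapped. After that LIN28A fell in WT by 1.31 ± 0.22 (adjusted p = 9.34e-06) and by 2.68 ± 0.32 (adjusted p = 4e-07), and in KO by 0.90 ± 0.22 (adjusted p = 0.00142) and by 2.25 ± 0.31 (adjusted p = 2.26e-06). At day 7.5 7.41% of the first-day mean was left in WT, with 46.7, 41.9 and 38.8 CPM, and 9.83% in KO, with 44.9, 57.0 and 53.8 CPM.

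DNMT3B, the de novo DNA methyltransferase, fell at every step in both genotypes. WT had 342, 348, 434, 452 and 469 CPM at day 1.5, 160, 192 and 224 CPM (lowest, median, highest) at day 2.5, 63.0, 80.7 and 121 CPM at day 4.5, and 23.6, 36.3 and 32.3 CPM at day 7.5. No 2 successive days overlapped. The WT steps were -1.31 ± 0.15 (adjusted p = 9.54e-09, edgeR), -1.08 ± 0.15 (adjusted p = 1.95e-07) and -1.47 ± 0.20 (adjusted p = 7.38e-06). Those in KO were -1.52 ± 0.15 (adjusted p = 1.37e-10), -1.47 ± 0.15 (adjusted p = 3.37e-10) and -0.85 ± 0.20 (adjusted p = 0.00366).

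TERT, the catalytic subunit of telomerase, did not pass the filter on low counts and was not tested. WT had 2.80, 3.91, 5.22, 4.61 and 2.58 CPM at day 1.5 and KO 0.554, 2.08 and 4.00 CPM (lowest, median, highest). From 47 counts over 5 WT libraries it went to 1 count over 6 at day 2.5, a ratio of 47.4-fold with a counting interval of 8.10 to 1910. In KO 29 counts went to 3, a ratio of 7.45-fold with an interval of 2.31 to 38.2. At most 2 counts per group were seen at days 4.5 and 7.5.

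Counted over the set, 6 of the 10 members fell from day 1.5 to 2.5 in WT, against 15.1% of the 13797 genes tested that fell and 30.1% that changed either way: POU5F1, NANOG, ZFP42, L1TD1, DNMT3B and PRDM14. In KO it was 5 of 10, against 16.1% of genes that fell and 33.3% that changed. From day 2.5 to 4.5, 7 of 10 fell in WT and 7 of 10 in KO, namely all but NANOG, PRDM14 and TERT, where 15.9% and 14.9% of genes fell and 34.5% and 30.5% changed. From day 4.5 to 7.5, DPPA4, LIN28A and DNMT3B fell in WT, against 1.44% of genes, and in KO these 3 with L1TD1 and ZFP42, against 3.01%. The share of genes that changed either way in that last step was 2.7% in WT and 6.22% in KO. ZFP42 in that KO step went from 13 counts to 0, at least 2.06-fold lower, with an adjusted p of 0.047 that rose to 0.0788 with line and repeat as the block, to 0.101 by DESeq2, to 0.0763 without the filter on low counts, and to 0.063 to 0.165 when any of 6 single KO libraries was left out (cl46_R1, cl4_R3 or cl51_R1 of day 4.5, and each of the 3 of day 7.5). Over the whole course, day 1.5 to 7.5, 9 of 10 fell in WT and 8 of 10 in KO, all but TERT and, in KO, SOX2, against 24.5% and 25% of genes that fell and 49.9% and 51.3% that changed. The median log2 change of the 9 tested members was -1.31, -1.80 and -1.47 for the 3 WT steps, beside 0.01, 0.03 and -0.05 for all genes, and -1.52, -2.79 and -2.25 in KO. TERT is not in these medians, while NANOG and PRDM14 are. In the last WT step the change of both was 0 because neither had a read. NANOG and PRDM14 passed the filter through day 1.5 alone, so they had to be lower after that day. Their calls from day 1.5 are counted here but are no support for a fall. SOX2 passed the filter mainly through day 2.5, so its calls from that day are likewise counted but are no support.

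Divided by the days of a step, the fitted changes give a rate. In WT POU5F1 changed by -2.82 ± 0.32 log2 units per day (SE) in the first step and -2.69 ± 0.22 in the second, and L1TD1 by -2.84 ± 0.38 and -2.06 ± 0.21. DNMT3B had -1.31 ± 0.15, -0.54 ± 0.07 and -0.49 ± 0.07 per day. DPPA4 went at -0.57 ± 0.27, -0.90 ± 0.14 and -0.89 ± 0.15 per day, and LIN28A at 0.08 ± 0.23, -0.65 ± 0.11 and -0.89 ± 0.11. Differences between members or between steps were not tested. Over the whole course the WT and KO rates were -0.84 ± 0.08 and -0.70 ± 0.07 per day for DPPA4, -1.498 ± 0.12 and -1.37 ± 0.12 for L1TD1, -0.65 ± 0.06 and -0.58 ± 0.05 for LIN28A, and -0.64 ± 0.04 in both for DNMT3B. Rates of POU5F1, NANOG, ZFP42 and PRDM14 over the last step rest on a handful of counts and are not read.

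**Figure D2:**
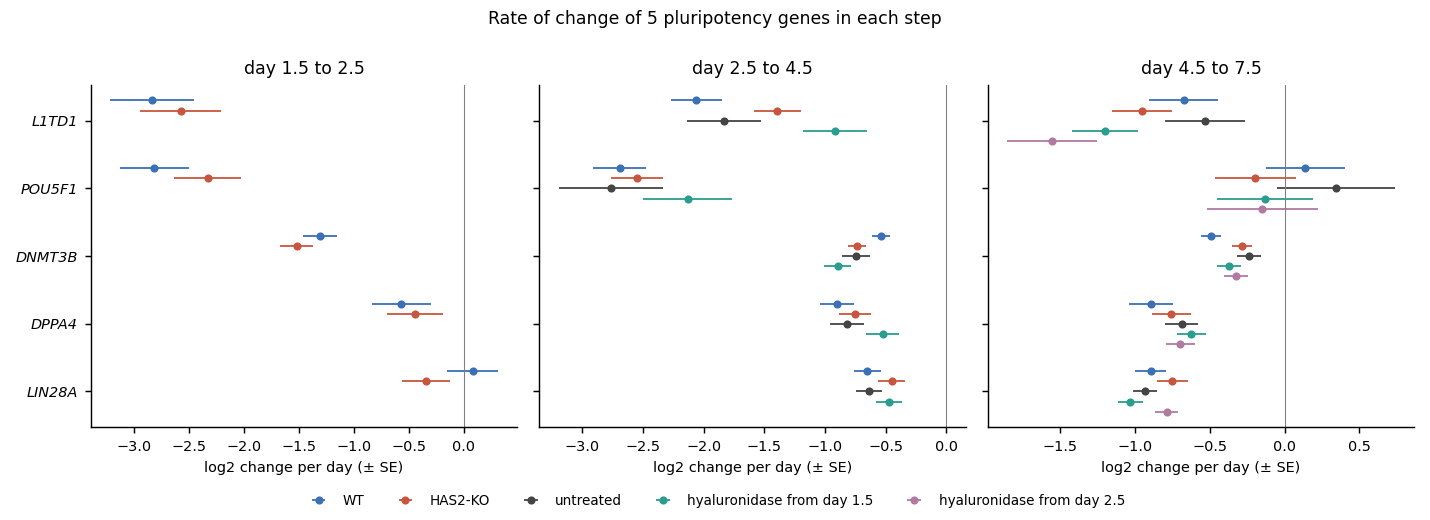
Rate of change of 5 genes in each step. The x axis is the log2 change per day with its SE, 1 panel per step (each with its own scale) and 1 row per gene, and colours stand for WT, KO, untreated, HAse1.5 and HAse2.5; in the step from day 2.5 to 4.5 the L1TD1 points for KO (-1.39) and HAse1.5 (-0.92) lie nearer 0 than WT (-2.06) and untreated (-1.83).

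Ordered by the share of the first-day mean left at day 2.5, WT members ran from NANOG (0.464%), TERT (3.04%) and PRDM14 (3.85%) through L1TD1 (15.9%), POU5F1 (16.6%), DNMT3B (46.2%), ZFP42 (65.1%) and DPPA4 (76.8%) to LIN28A (124%) and SOX2 (126%). In KO the order was NANOG (6.54%), TERT (12.4%), L1TD1 (19.3%), POU5F1 (23.3%), PRDM14 (24.2%), DNMT3B (40.7%), ZFP42 (49.0%), DPPA4 (84.6%), LIN28A (93.2%) and SOX2 (318%). At day 4.5 in WT NANOG and PRDM14 were at 0 counts and TERT at 5.67% (2 counts). There ZFP42 (0.0916%), POU5F1 (0.349%) and L1TD1 (0.918%) were below DNMT3B (21.3%), DPPA4 (21.7%), SOX2 (21.9%) and LIN28A (48.6%). Neighbours such as L1TD1 and POU5F1, or DNMT3B, DPPA4 and SOX2 at day 4.5, do not differ beyond the spread of their libraries. ZFP42 thus moved from among the best kept to among the least kept within that step.

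The genotypes were compared at each day. At day 1.5 none of the 13797 genes and none of the members passed (0% called by edgeR and 0 genes by DESeq2; 591 genes and 0 members had an unadjusted p under 0.05). At day 2.5, 0.993% of genes passed and none of the 10 members did by edgeR or DESeq2, though 2 had an unadjusted p under 0.05. These were PRDM14, with KO minus WT at 3.21 ± 1.196 on the log2 scale (95% interval 0.77 to 5.65, adjusted p = 0.275), and LIN28A, at -0.58 ± 0.22 (95% interval -1.03 to -0.14, adjusted p = 0.267). For PRDM14 the 21 KO counts against 2 in WT give a ratio of 14.3-fold with a counting interval of 3.49 to 125.

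Members were called different between genotypes at day 4.5. Of the 10 members, L1TD1, ZFP42 and NANOG were higher in KO and DNMT3B was lower, against 1.14% of genes called higher, 2.6% called lower and 3.74% either way. L1TD1 in WT was 2.81, 3.96, 11.7, 9.39, 11.9 and 20.8 CPM (lines WT_R1, WT_TU_R1, WT_R2, WT_TU_R2, cl43_WT_UT and TNT2) and in KO 27.9, 19.6, 33.6, 37.7, 19.9 and 65.4 CPM (cl4_R1, cl4_R2, cl4_R3, cl14, cl46 and cl51). The groups overlapped only through the WT library TNT2, which exceeded cl4_R2 and cl46. The difference was 1.74 ± 0.41 (95% interval 0.91 to 2.56, adjusted p = 0.00969, edgeR), or 3.90-fold in pooled counts (340 against 107). Without cl51 it was 1.46 with an adjusted p of 0.0544. Within library-number blocks the KO library of block A (27.9 CPM) lay above both WT libraries (2.81 and 3.96 CPM) and that of block B (19.6 CPM) above both as well (11.7 and 9.39 CPM).

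ZFP42 and NANOG at day 4.5 were differences between nothing and a few reads. WT had 1 ZFP42 count in 6 libraries, and KO had 1, 1, 2, 0, 4 and 5 counts (cl4_R1, cl4_R2, cl4_R3, cl14, cl46 and cl51). That is 13 counts against 1, a ratio of 15.9-fold with a counting interval of 2.39 to 677, and edgeR gave 3.13 ± 0.82 (adjusted p = 0.0248). The call was lost without cl46 (adjusted p = 0.0742), cl51 (0.0997) or WT_TU_R1 (0.0785). NANOG had 0 counts in the 6 WT libraries and 6, 1, 3, 0, 1 and 0 counts in KO in the same order of clones, so 10 of the 11 counts came from the single clone cl4. It was at least 4.50-fold higher in KO (adjusted p = 0.0301). Its adjusted p was 0.0797 without cl4_R1, 0.0672 without cl4_R3, 0.0783 without WT_R1, 0.07 without WT_TU_R1 and 0.224 without block A, and 0.0512 without the filter on low counts.

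DNMT3B differed the other way at day 4.5, by less. WT had 69.4, 63.0, 68.4, 92.0, 110 and 121 CPM and KO 53.8, 61.1, 51.1, 81.9, 64.6 and 67.2 CPM, in the same order of libraries. The groups overlapped, but within each library-number block every KO library was below every WT library: 53.8 against 63.0 and 69.4 CPM in block A, 61.1 against 68.4 and 92.0 CPM in block B, and at most 81.9 against at least 110 CPM in block C. The log2 difference was -0.53 ± 0.15 (95% interval -0.83 to -0.23, adjusted p = 0.0392, edgeR). The adjusted p was 0.171 when only the compared groups were fitted, 0.206 without the filter on low counts, and 0.0566 to 0.106 when any of 8 single libraries was left out (WT_TU_R2, cl43_WT_UT, TNT2, cl4_R1, cl4_R2, cl4_R3, cl46 or cl51).

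The other members did not pass at day 4.5. DPPA4 was 0.59 ± 0.27 higher in KO on the log2 scale (adjusted p = 0.223), with KO at 26.9, 44.6 and 65.5 CPM (lowest, median, highest) against 12.2, 32.8 and 42.2 CPM. POU5F1 differed by 0.57 ± 0.62 (adjusted p = 0.639) and LIN28A by -0.18 ± 0.22 (adjusted p = 0.679). At day 7.5 no member passed by edgeR or DESeq2, and 0 had an unadjusted p under 0.05, where 0.348% of genes passed. DPPA4 then had 9.11, 9.21 and 8.63 CPM in KO and 1.54, 4.89 and 7.11 CPM in WT, groups that did not overlap, with a log2 difference of 1.00 ± 0.51 (adjusted p = 0.934). In block B, the one block with both genotypes at that day, the KO library had 9.11 CPM and the WT libraries 4.89 and 7.11 CPM.

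Whether the falls themselves ran at different rates was tested as the difference of each step between KO and WT. From day 1.5 to 2.5 no member's step passed by edgeR or DESeq2 (0 at an unadjusted p under 0.05), where 0.0797% of genes did. From day 2.5 to 4.5, where 0.609% of genes passed, the ZFP42 step was 3.38 ± 0.87 shallower in KO on the log2 scale (95% interval 1.63 to 5.14, adjusted p = 0.0553) and the L1TD1 step 1.34 ± 0.53 shallower (adjusted p = 0.39), neither past the threshold. With the library-number block in the fit these were 3.44 (adjusted p = 0.0217) and 1.34 (adjusted p = 0.026), and with line and repeat as the block 3.37 (adjusted p = 0.0417) and 1.32 (adjusted p = 0.0388). For ZFP42 leaving out cl14 (adjusted p = 0.0317), cl4_R1 (0.0404) or cl4_R2 (0.0495) of day 4.5, or cl43_WT_UT of day 2.5 (0.0448), also moved the step past the threshold, and block A left out gave 4.38 (adjusted p = 0.0479), DESeq2 3.49 (0.0472). The DNMT3B step differed by -0.39 ± 0.21 (adjusted p = 0.669) and the DPPA4 step by 0.30 (adjusted p = 0.99). From day 4.5 to 7.5 and over the whole course no member's step passed by edgeR or DESeq2 (1 and 0 at an unadjusted p under 0.05), against 0.159% and 0.21% of genes.

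Other cell types' markers moved with day 4.5 KO libraries. The summed level of 8 cardiomyocyte markers was 26950 to 58460 CPM in WT and 15730 to 41630 CPM in KO, and 3 of the 8 fell below WT by edgeR, among them MYL7 at -3.45. Of 6 amnion markers, with sums of 37.2 to 168 CPM in WT and 87.4 to 299 CPM in KO, TFAP2A (2.38 ± 0.49, adjusted p = 0.00292) and ISL1 (1.40 ± 0.35, adjusted p = 0.0157) were higher. ISL1, also a cardiac progenitor marker, made most of the KO sum, with a mean of 125 CPM. GATA3 did not pass (0.67 ± 0.26, adjusted p = 0.143, edgeR). GABRP, VTCN1 and KRT7, too low to test, had 47, 46 and 46 counts in KO against 3, 10 and 4 in WT. The same KO library, that of clone cl51, was highest for all of these and held 25, 30 and 26 of those counts. It also had the highest TFAP2A of the KO libraries (26.1 CPM) and the highest L1TD1 and ZFP42. GABRP ranged from 1.02 to 14.5 CPM in KO and from 0 to 0.720 CPM in WT, without overlap. Of 6 germ cell markers, with sums of 8.12 to 20.7 CPM and 24.4 to 33.5 CPM, TFAP2C was higher by 2.32, while DAZL had 0 counts. PRDM1 made up much of that sum, at 18.9 ± 4.78 CPM in KO and 8.81 ± 5.00 CPM in WT (SD, n = 6 each). Definitive endoderm markers summed to 7.25 to 50.7 CPM in WT and 46.9 to 85.3 CPM in KO, and neural markers to 2.31 to 35.6 CPM and 4.03 to 31.2 CPM. The part of these cells in the L1TD1, ZFP42 and NANOG differences was not tested.

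**Figure D3:**
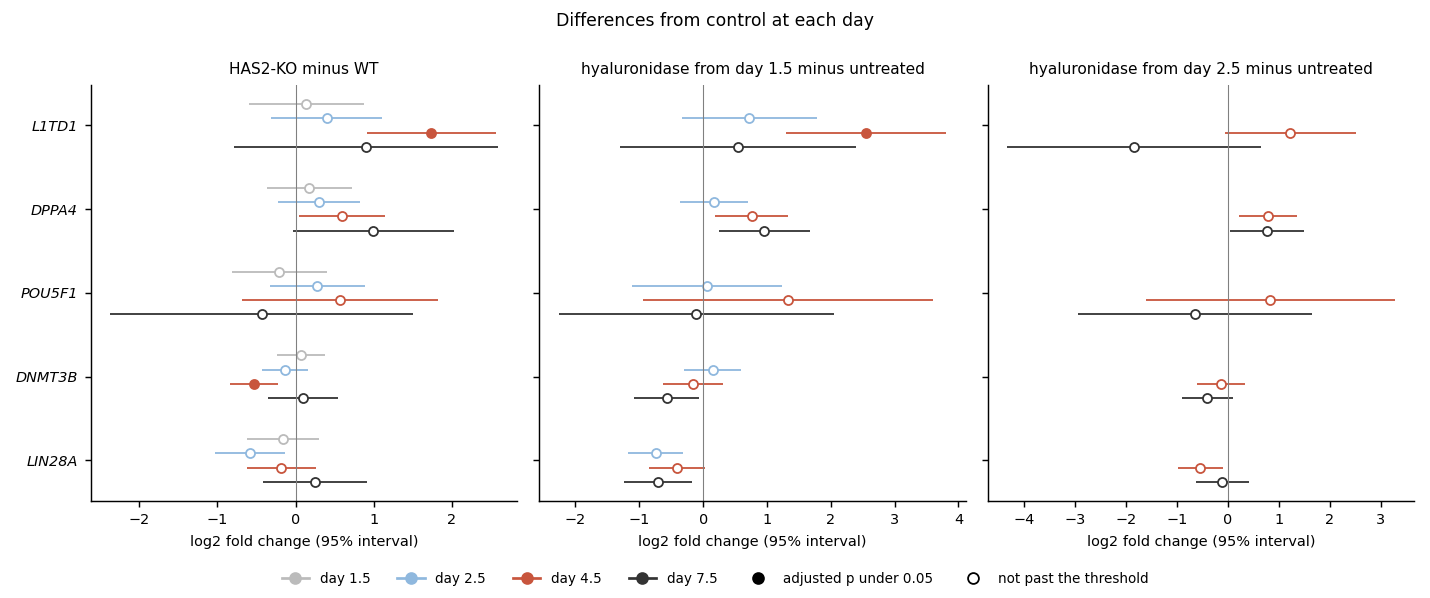
Differences between conditions for 5 genes by day. The x axis is the log2 fold change with its 95% interval, rows are genes, colours are days, panels (each with its own scale) show KO minus WT, HAse1.5 minus untreated and HAse2.5 minus untreated, and filled points have an adjusted p under 0.05; filled points are L1TD1 and DNMT3B in KO at day 4.5 (1.74 and -0.53) and L1TD1 in HAse1.5 at day 4.5 (2.56).

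In the enzyme arm sampling began at day 2.5, and 6 of the 10 members passed the filter: POU5F1, ZFP42, DPPA4, L1TD1, LIN28A and DNMT3B. All 6 fell from day 2.5 to 4.5 in untreated and in HAse1.5 cardioids, against 11.1% and 11% of the 12748 genes tested that fell, and 23% and 22.7% that changed either way. In these 2 conditions POU5F1 and ZFP42 were high enough for the filter only at day 2.5. Their fall from that day was therefore fixed in advance, and their calls are counted but are no support for it. In untreated cardioids the falls were 5.53 ± 0.86 on the log2 scale for POU5F1, 3.67 ± 0.61 for L1TD1, 1.64 ± 0.28 for DPPA4 and 1.28 ± 0.21 for LIN28A. NANOG, SOX2, PRDM14 and TERT had at most 25 counts in any group of this arm and were not tested.

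Of the 10 members, L1TD1 alone was called between hyaluronidase from day 1.5 and untreated, at day 4.5. Untreated cardioids had 19.1, 10.7 and 18.1 CPM (lines TNNI1, WT and TNNT2) and HAse1.5 cardioids 192, 33.7 and 76.2 CPM. Each line was higher with enzyme and the groups did not overlap, though the treated values spanned a wide range. The log2 difference was 2.56 ± 0.60 (95% interval 1.30 to 3.81, adjusted p = 0.02, edgeR), or 6.53-fold in pooled counts (480 against 66), where 1.07% of genes were called higher, 2.41% lower and 3.48% either way. With the cell line as a block it was 2.43 (adjusted p = 0.00964). The call was lost when only the compared groups were fitted (adjusted p = 0.131), without the filter on low counts (0.0536), without the treated TNNI1 library (1.70, adjusted p = 0.165) or without any of the 3 untreated libraries (2.35 to 2.73, adjusted p = 0.0716 to 0.0905).

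A day after the enzyme was added, at day 2.5, L1TD1 had 349, 287 and 330 CPM with enzyme and 203, 190 and 176 CPM without. The groups did not overlap, but the difference of 0.73 ± 0.50 (95% interval -0.33 to 1.78) did not pass (adjusted p = 0.805), and 1.15% of genes passed; no member did by edgeR. By day 7.5 L1TD1 was at 13.9, 3.60 and 6.27 CPM with enzyme and 0.892, 7.66 and 5.19 CPM without, overlapping. From day 2.5 to 4.5 L1TD1 fell in HAse1.5 by 1.84 ± 0.52 (adjusted p = 0.0152) and in untreated cardioids by 3.67 ± 0.61. The difference of these steps, 1.83 ± 0.78, did not pass (adjusted p = 0.459), where 0.706% of genes did. The HAse1.5 fall itself missed the threshold without the filter on low counts (-1.82, adjusted p = 0.0561), without replicate 2 (-1.44, adjusted p = 0.0687) or replicate 3 (-1.66, adjusted p = 0.0739) of day 4.5.

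LIN28A stood lower with early enzyme at day 2.5, with 382, 251 and 381 CPM against 624.5, 534 and 496 CPM. The groups did not overlap, and each line was lower with enzyme. The log2 difference was -0.74 ± 0.21 (95% interval -1.17 to -0.31, adjusted p = 0.0903, edgeR), and DESeq2 gave -0.73 with an adjusted p of 0.0225. At day 4.5 LIN28A had 210, 179 and 200 CPM with enzyme and 197, 246 and 301 CPM without (-0.41, adjusted p = 0.402).

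DPPA4 was higher with early enzyme at day 4.5 in each line, with 81.3, 80.4 and 84.4 CPM against 39.6, 34.6 and 62.6 CPM. The groups did not overlap, and the log2 difference was 0.76 ± 0.28 (95% interval 0.19 to 1.33, adjusted p = 0.154, edgeR). At day 7.5 it had 16.3, 22.3 and 24.4 CPM against 11.6, 8.30 and 10.4 CPM, a log2 difference of 0.96 ± 0.35 (adjusted p = 0.148), where 3.33% of genes and no member passed by edgeR or DESeq2 (3 members at an unadjusted p under 0.05). POU5F1 did not separate the groups: 57.7, 71.1 and 51.8 CPM with enzyme at day 2.5 stood beside 53.6, 66.2 and 50.5 CPM without. At day 4.5 it had 4.34, 0 and 5.24 CPM with enzyme and 0, 1.78 and 2.09 CPM without (1.32 ± 1.10, adjusted p = 0.707). DNMT3B had 113, 65.7 and 89.6 CPM with enzyme at day 4.5 and 80.5, 96.8 and 108 CPM without.

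SOX2, which was too low to test, had 5.49, 9.59 and 3.12 CPM at day 2.5 with enzyme and 2.04, 1.79 and 2.80 CPM without. The groups did not overlap, and 25 counts against 11 give a ratio of 2.56-fold with a counting interval of 1.22 to 5.77. TERT at the same day had 1 count with enzyme and 6 without. ZFP42 had 19.2, 15.98 and 25.6 CPM with enzyme and 24.5, 10.7 and 12.3 CPM without, which overlapped.

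Hyaluronidase from day 2.5 gave no called member difference at day 4.5 or 7.5 by edgeR or DESeq2 (3 and 1 members at an unadjusted p under 0.05), where 0.22% and 0.659% of genes passed. L1TD1 had 55.4, 8.59 and 51.3 CPM at day 4.5, so the lines TNNI1 and TNNT2 were above their untreated libraries and the line WT was below (1.22 ± 0.62, adjusted p = 0.751). DPPA4 had 73.3, 63.2 and 105 CPM, above untreated in each line without overlap (0.78 ± 0.28, adjusted p = 0.384). LIN28A had 162, 170 and 190 CPM, below untreated without overlap (-0.54 ± 0.21, adjusted p = 0.488). No member passed between early and late enzyme by edgeR or DESeq2 at days 4.5 and 7.5 (2 at an unadjusted p under 0.05 on each day), with 0.361% and 0.00784% of genes called; for L1TD1 at day 4.5 the difference was 1.33 ± 0.55 (adjusted p = 0.385). Early and late enzyme share their untreated libraries.

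**Figure D4:**
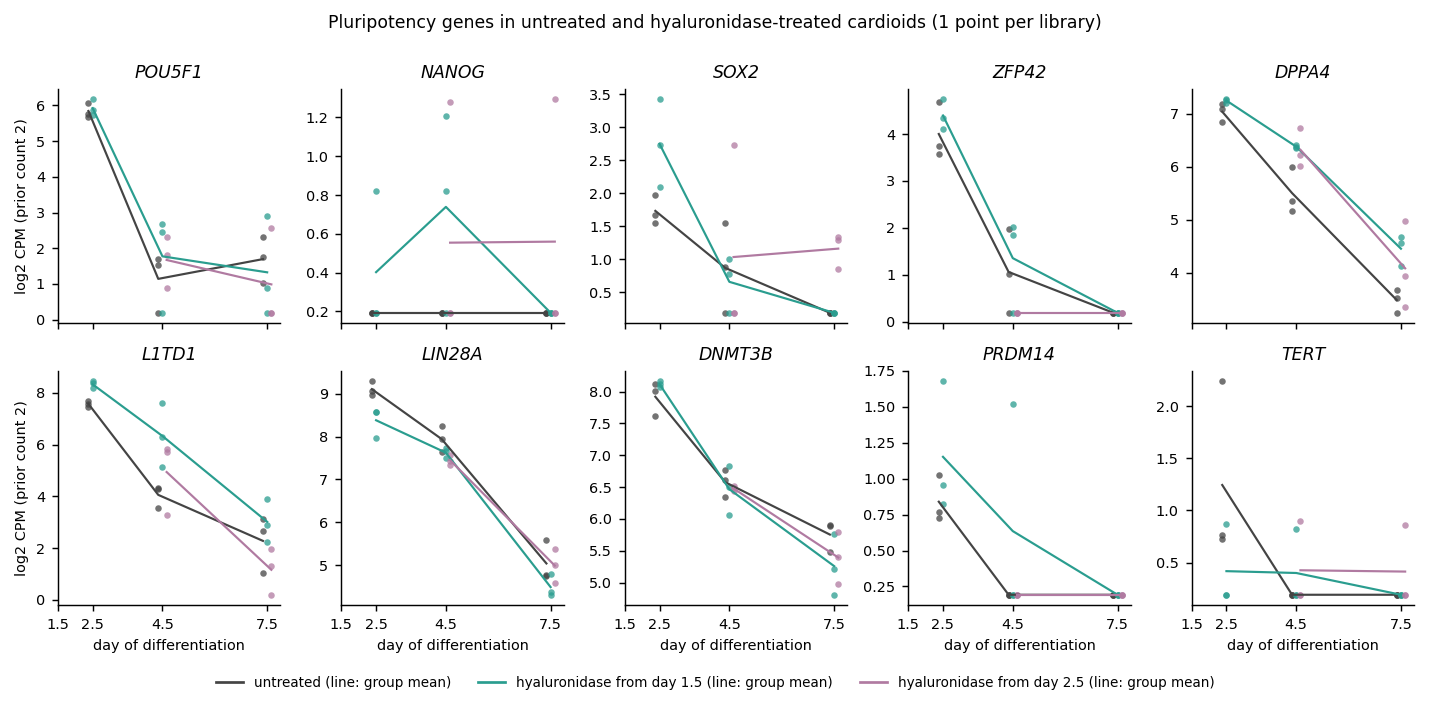
Expression of the 10 genes by day in the enzyme arm, 1 panel per gene. The x axis is the day, the y axis log2 CPM (prior count 2), each point is 1 library and lines join group means for untreated, HAse1.5 and HAse2.5, each panel with its own scale; at day 4.5 the HAse1.5 points of L1TD1 (33.7 to 192 CPM) lie above the untreated points (10.7 to 19.1 CPM).

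After day 4.5 members fell in treated and untreated groups. From day 4.5 to 7.5 L1TD1 fell by 3.61 ± 0.66 in HAse1.5 (adjusted p = 0.00183, edgeR) and by 4.67 ± 0.90 in HAse2.5 (adjusted p = 0.00911), while in untreated cardioids the change was -1.60 ± 0.80 (adjusted p = 0.222). Without replicate 3 of day 7.5 the HAse2.5 change was -4.09 (adjusted p = 0.0534). DPPA4 and LIN28A fell in all 3 conditions, by 2.07 ± 0.33 and 2.80 ± 0.24 in untreated, 1.87 ± 0.30 and 3.09 ± 0.25 in HAse1.5, and 2.09 ± 0.30 and 2.37 ± 0.24 in HAse2.5. DNMT3B fell in HAse1.5 by 1.12 ± 0.24 (adjusted p = 0.00442) and in HAse2.5 by 0.98 ± 0.24 (adjusted p = 0.0271), and the untreated change was -0.71 ± 0.24 (adjusted p = 0.068), which passed by DESeq2 (-0.68, adjusted p = 0.0478) and without the filter on low counts (0.044). The HAse1.5 call was lost when only the compared groups were fitted (-1.13, adjusted p = 0.0689). The HAse2.5 call for DNMT3B was lost when any of 5 single libraries was left out (adjusted p = 0.0748 to 0.185): replicates 1, 2 or 3 of day 4.5 and 1 or 3 of day 7.5. In this step 2.93% of genes fell in untreated, 3.82% in HAse1.5 and 0.604% in HAse2.5, and 6.39%, 8.17% and 1.93% changed either way. No member's step passed between early enzyme and untreated by edgeR or DESeq2 (0 at an unadjusted p under 0.05), against 0.0157% of genes.

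Markers moved with early enzyme at day 4.5 as well. The 8 cardiomyocyte markers summed to 23680 to 46230 CPM in untreated libraries and 5039 to 18950 CPM in HAse1.5, and 7 of the 8 were lower by edgeR, with MYL7 at -6.78 and MYH6 at -3.78. The 6 amnion markers summed to 86.7 to 150 CPM and 262 to 660 CPM, with GATA3 (1.95 ± 0.47, adjusted p = 0.0222) and ISL1 (2.07 ± 0.48, adjusted p = 0.0174) higher. Those 2 genes carried the sum: ISL1 had 203 to 450 CPM and GATA3 56.2 to 352 CPM in HAse1.5, while TFAP2A differed by -0.58 ± 1.22 (adjusted p = 0.928), GABRP had 0 counts against 6 in untreated libraries, and KRT7 had 1 count in each. The 6 germ cell markers summed to 9.04 to 20.4 CPM and 47.2 to 70.0 CPM, of which PRDM1 alone was 36.1 to 58.8 CPM in HAse1.5 (2.29 ± 0.50, adjusted p = 0.00918), while DAZL and DDX4 had 0 counts there and NANOS3 had 3. The part of these cells in the L1TD1 difference was not tested.

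Other genes of the pluripotent state fell as well. Of 22 further core and primed pluripotency genes 17 could be tested in the genotype arm, and 10 fell in WT from day 1.5 to 2.5 and 11 from day 2.5 to 4.5. Over the whole course 13 fell in WT and 14 in KO, beside the genes' shares given above. SALL4, a zinc finger partner of the core circuit, had 210 ± 101 CPM in WT at day 1.5 (SD, n = 5), 279 ± 84.0 CPM at day 2.5 and 78.9 ± 39.6 CPM at day 4.5 (SD, n = 6 each). It rose in KO from day 1.5 to 2.5 by 0.87 ± 0.28 (adjusted p = 0.0154). ZIC2, a zinc finger factor of the primed state, fell in WT by 3.55 ± 0.42 in the first step (adjusted p = 1.41e-08), and VRTN, at -0.26 ± 0.27 in that step (adjusted p = 0.507), fell by 5.04 ± 0.33 in the next (adjusted p = 1.24e-15).

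Between genotypes at day 4.5, 3 of these 17 genes were higher in KO and 1 was lower, against 1.14% and 2.6% of all genes tested. OTX2, a homeobox factor of primed cells and of the early embryo's anterior tissues, had 50.1 ± 9.56 CPM in KO and 17.3 ± 3.16 CPM in WT (SD, n = 6 each), a log2 difference of 1.45 ± 0.22 (adjusted p = 4.47e-05, edgeR). The epithelial adhesion genes CDH1 (2.64 ± 0.63, adjusted p = 0.0112) and EPCAM (1.85 ± 0.34, adjusted p = 0.000722) were the other higher ones, and TDGF1, a NODAL co-receptor, was lower (-4.61 ± 0.79, adjusted p = 0.000217); these 3 were named after their values were seen. With early enzyme, VRTN alone of 14 tested was higher at day 4.5 (2.30 ± 0.62, adjusted p = 0.0454), against 1.07% of all genes tested.

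The pathways of single members held both falls and rises. Of 13 genes of the LIN28 and let-7 pathway 4 fell and 3 rose over the course in WT, near the 24.5% of all genes that fell and 49.9% that changed. HMGA2, a let-7 target, was lower in KO at day 4.5 (-1.04 ± 0.21, adjusted p = 0.00216, edgeR), with 272 ± 19.5 CPM against 528 ± 138 CPM in WT (SD, n = 6 each). Of 10 tested DNA methylation genes 5 fell and 3 rose in WT over the same course; DNMT1, the maintenance enzyme, fell by 1.14 ± 0.20 (adjusted p = 7.23e-06), and DNMT3A, the other de novo enzyme, rose by 1.01 ± 0.21 (adjusted p = 0.000127) while DNMT3B fell by 3.87 ± 0.23. Of 11 tested telomerase and telomere genes 6 fell and 1 rose in WT, to be read against the same shares, and DKC1, a subunit of the telomerase particle, fell by 2.19 ± 0.38 (adjusted p = 6.95e-06). Of 12 naive pluripotency genes only 4 were high enough to test, and TBX3 among them had 195 ± 69.6 CPM at day 1.5 (SD, n = 5) and 292 ± 75.8 CPM at day 7.5 (SD, n = 3) in WT (0.47 ± 0.28, adjusted p = 0.162). No tested gene of the naive, DNA methylation or telomerase lists passed between genotypes at any day by edgeR.

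The genes most like each member were searched among 12566 genes tested in both arms, by Pearson's r of the mean log2 CPM over the 16 groups. These points share libraries and the course of days, so r is given as a description. POU5F1 was closest to ZSCAN10 (0.989), CBLN1 (0.986) and GNG4 (0.985), and ZFP42 to MIR302CHG (0.991), the host transcript of a stem cell microRNA cluster. NANOG was closest to DDX18 (0.959) and to the primitive streak gene MIXL1 (0.947), which fell between the same days. L1TD1 was closest to UBA2 (0.982), LIN28A to HMGA1 (0.966), DNMT3B to NTS (0.977), DPPA4 to FBLN1 (0.978), PRDM14 to SNHG4 (0.956), SOX2 to PHF20 (0.932) and TERT to IPO4 (0.913). Among the members themselves POU5F1 and ZFP42 had r = 0.976 and POU5F1 and NANOG r = 0.672 over the same 16 groups.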

How the data were processed

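3′ mRNA libraries (QuantSeq FWD), each of 8 pooled cardioids, were sequenced single-end, per the labels' protocols. The deposited values are whole-number counts per gene that the authors made with featureCounts of Subread 1.6.2 on hg38 (GRCh38), per the submitters' processing notes; the aligner, the strand setting and any use of molecular identifiers are not given in the sources used here. Of 58735 gene IDs, 58207 had a symbol, and positions are those of GENCODE 29. A further 4 columns of per-sample values in the table could be tied to no sample here and were left aside. Total counts per library were 831062 to 3574843.

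CPM and log2 CPM (prior count 2) were computed from the counts. Each arm was fitted with edgeR 4.0.16 (quasi-likelihood, robust; limma 3.58.1; R 4.3.3) after filterByExpr (minimum count 10) and TMM scaling, with 1 mean per group, and p-values were adjusted by Benjamini-Hochberg over the 13797 genes tested in the genotype arm or the 12748 in the enzyme arm; the threshold was 0.05. A rate is the fitted log2 change divided by the days of the step. Ratios of pooled counts carry exact 95% counting intervals, and a group at 0 counts was set at a floor of 3 counts over the group; intervals and floors cover counting error only, since PCR reads are not independent molecules. On simulated data for 13162 genes the KO minus WT test at day 4.5 recovered 34.7% of 2-fold and 77.3% of 4-fold changes (3 false calls), and that of HAse1.5 minus untreated, on 12339 genes, 19.8% and 77.6% (3 false calls). The simulation set each gene at its mean level over all days of the arm and drew libraries independently. These shares therefore do not describe members near the floor at day 4.5.

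Alternatives were DESeq2 1.42.0, its size factors, no filter, fits of the compared groups alone, each library left out in turn, replicate blocks, and, added after seeing the data, the libraries of block A left out and POU5F1B added to POU5F1. Lines pair libraries per the labels: same line and repeat on different days had a correlation of deviations over 0.1 in 38 of 51 pairs (lowest -0.16), KO and WT of the same library-number block and day in 27 of 37 (lowest -0.0743), and treatments of the same line and day in 15 of 21 (lowest -0.0987).

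The members and gene lists were chosen with earlier results of these data known. All 10 members are named; of other lists at most 4 genes each, those with the highest mean CPM, and the 3 genes most alike to each member were eligible for naming. Single marker genes, and CDH1, EPCAM and TDGF1, were named outside this rule after their values were seen. Marker lists (cardiomyocyte, primitive streak, cardiac progenitor, amnion, germ cell, endoderm, neural) served as a check of other cell types.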

Additional observations from a re-analysis of the deposited data

Results flagged for a closer look

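At day 1.5 the KO library cl4_R1 lay far from the other 5 KO libraries in 4 members. It held 127 CPM of ZFP42, where the next highest library had 60.2 CPM, and 903 CPM of LIN28A, where the next highest had 509 CPM. It held 55.4 CPM of DPPA4, where the next lowest had 166 CPM, and 311 CPM of L1TD1, where the next lowest had 1176 CPM. In each case the gap to the nearest library exceeded the 95% limit of Dixon's test for 6 libraries. These were 4 of 49 gene and group combinations examined, and chance gives about 1 in 20. The library belongs to block A. The 2 WT libraries of that block at day 1.5 also stood below the others in L1TD1 and DPPA4 and above them in LIN28A, but in the WT group, with 2 such libraries, neither was far from its nearest neighbour.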

How the results depend on the processing

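Of 252 tested member results, 89 passed the threshold, 76 of them in each alternative run, and of 163 that did not pass, 153 passed in none; no called result reversed. With 3 libraries a group and few counts after day 4.5, small differences in POU5F1, NANOG, SOX2, ZFP42, PRDM14 and TERT were not detectable at this depth. Counts of members past the threshold moved by over 1.5 times in these cases, and the cause was not tested. For KO from day 1.5 to 2.5 (5 members) the count was 8 without block A. For KO minus WT at day 4.5 (4) it was 2 without the filter on low counts, 1 with only the compared groups fitted, and 1 to 4 with single libraries left out. For the KO minus WT step from day 2.5 to 4.5 (0) it was 1 by DESeq2, 1 with only the compared groups, 1 without block A, 2 with the library-number block and 2 with line and repeat as the block, and 0 to 1 with single libraries left out. For HAse2.5 from day 4.5 to 7.5 (4) it was 2 to 4 with single libraries left out. For HAse1.5 minus untreated at day 2.5 (0) it was 1 by DESeq2 and 1 without the filter, and at day 4.5 (1) it was 0 without the filter, 0 with only the compared groups, and 0 to 1 with single libraries left out. Paired fits with a replicate block changed no member call besides those given with the results. Of 114 rates, 24 moved by over 1 SD when computed as log2 CPM with a prior count of 0.5.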

Other observations

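Primitive streak genes also declined over the same days. Summed over the streak markers, WT libraries had 3007 to 4099 CPM at day 1.5 and 55.6 to 133 CPM at day 2.5. KO libraries at day 2.5 had 152 to 239 CPM, above every WT library, and HAse1.5 libraries 238 to 502 CPM, above every untreated one (72.4 to 132 CPM). MIXL1, a homeobox factor of the streak, had 18.9 ± 8.12 CPM in KO and 3.37 ± 1.65 CPM in WT at day 2.5 (SD, n = 6 each). Of the pluripotency genes none was called at that day in either comparison by edgeR.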
